A study of Mus musculus with 4 samples.

Results

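The neuropeptides examined are 10 secreted signalling peptides or peptide precursors of hippocampal neurons and their afferents: Npy, Sst, Cck, Penk, Pdyn, Tac1, Tac2, Vip, Cort and Gal. They were taken as every probe set, a group of short array probes standing for a transcript, that the platform annotation pairs with one of these symbols alone. That gave 14 of the 12422 probe sets compared, covering all 10 genes. Left hippocampi of male, 12-month-old mice had been profiled on 4 Affymetrix arrays. The control group was 2 nontransgenic C57B6/SJL mice, and the APPSw group was 2 mice of the line Tg2576, which carry a transgene for Swedish-mutant amyloid precursor protein (APP). In this line a hamster prion protein promoter drives the transgene. The labels do not say whether the mice were littermates, and the p-values measure only the spread between these 4 arrays. Values are MAS 5.0 signals in arbitrary units, scaled by the authors to a target of 2500 on each array. The median signal of an array lay between 926 and 1033.

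Neuropeptides are made as longer precursors that convertases and carboxypeptidases cut at basic residues, are stored in dense core vesicles and act mostly through G protein-coupled receptors. In the hippocampus Sst, Npy, Cort, Vip and part of Cck mark classes of GABAergic interneuron, Pdyn is best known from the mossy fibres of dentate granule cells, and Gal is carried largely by fibres from outside the hippocampus. Their mRNA levels are known to respond to neuronal activity, in part through CREB, a transcription factor that binds the cAMP response element TGACGTCA or its shorter core TGACG.

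Because several of these genes are textbook targets of CREB, the 100 bases upstream of their start sites are shown, as given by RefSeq (GRCm38.p6), 5′ to 3′ on the coding strand. The set holds the 3 genes whose every kept probe set was lower on both APPSw arrays than on both controls (Sst, Cort and Pdyn), and the 3 others with a TGACG core in these 100 bases. For Pdyn, which has 2 start sites in the table, the more upstream is used. Capitals mark TGACGTCA, TGACG or the reverse complement of the latter, CGTCA.
Sst, chr16:23890845-23890944, minus strand: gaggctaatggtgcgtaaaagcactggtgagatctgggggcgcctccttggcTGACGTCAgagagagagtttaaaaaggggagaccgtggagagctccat
Cort, chr4:149126764-149126863, minus strand: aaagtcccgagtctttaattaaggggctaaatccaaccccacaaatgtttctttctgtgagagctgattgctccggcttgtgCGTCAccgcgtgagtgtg
Pdyn, chr2:129699939-129700038, minus strand: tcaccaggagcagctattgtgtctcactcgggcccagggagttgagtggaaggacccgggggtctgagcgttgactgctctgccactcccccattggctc
Cck, chr9:121495695-121495794, minus strand: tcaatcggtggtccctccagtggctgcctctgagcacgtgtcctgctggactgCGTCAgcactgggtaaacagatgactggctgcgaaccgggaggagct
Tac1, chr6:7554961-7555060, plus strand: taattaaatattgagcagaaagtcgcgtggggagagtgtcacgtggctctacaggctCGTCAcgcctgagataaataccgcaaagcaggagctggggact
Vip, chr10:5639118-5639217, plus strand: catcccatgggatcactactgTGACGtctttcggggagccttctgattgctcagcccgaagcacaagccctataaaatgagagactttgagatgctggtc

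Windows of 300 bases, 250 before and 50 after the start, were found for 9 of the 10 genes (10 windows, 2 of them for Pdyn). Penk was not matched. TGACGTCA occurred in 1 of the 10 windows, that of Sst, where it begins 48 bases before the start, and in 1.79% of all 32851 windows. The TGACG core, on either strand and including the copies inside the full element, occurred in the windows of 6 of the 9 genes (Sst, Cort, Cck, Tac1, Vip and Gal) and in 20.8% of all windows. The AP-1 site TGACTCA, on either strand, was in 0 of the 10 and in 5.20% of all. Of the 3 genes lower on both APPSw arrays, Sst and Cort held the core and Pdyn had it in neither window, and it was also present in genes whose groups overlapped (Cck, Tac1, Vip, Gal). A match to these letters is a description and not evidence of binding.

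Of the 14 probe sets, 12 passed a filter on the mean over all 4 arrays (a geometric mean signal of 565), and they stand for 9 genes. The sole Vip probe set and the dimmest of 3 Penk probe sets did not pass. Differences below are APPSw minus control in log2 signal, from limma over all 7453 kept probe sets, with its moderated SE and p-values adjusted by Benjamini-Hochberg over the 7453. No neuropeptide probe set was called at an adjusted p under 0.05 (0 of 12), and 0% of all kept probe sets were. The lowest adjusted p among the 12 was 0.609 and the highest 0.964. With 2 arrays a group, an exact two-sided permutation test cannot go below 0.333. Both APPSw arrays lay below both controls for 5 of the 12 probe sets, against 19% of all kept probe sets, and above both for 1 of the 12, against 22.2%. One of the 5, the dimmer Pdyn probe set, passed the filter through the control group, where it was the brighter, and without it the count is 4 of 11. The median difference was -0.11 over the 12 and 0.02 over all kept probe sets.

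**Figure D1:**
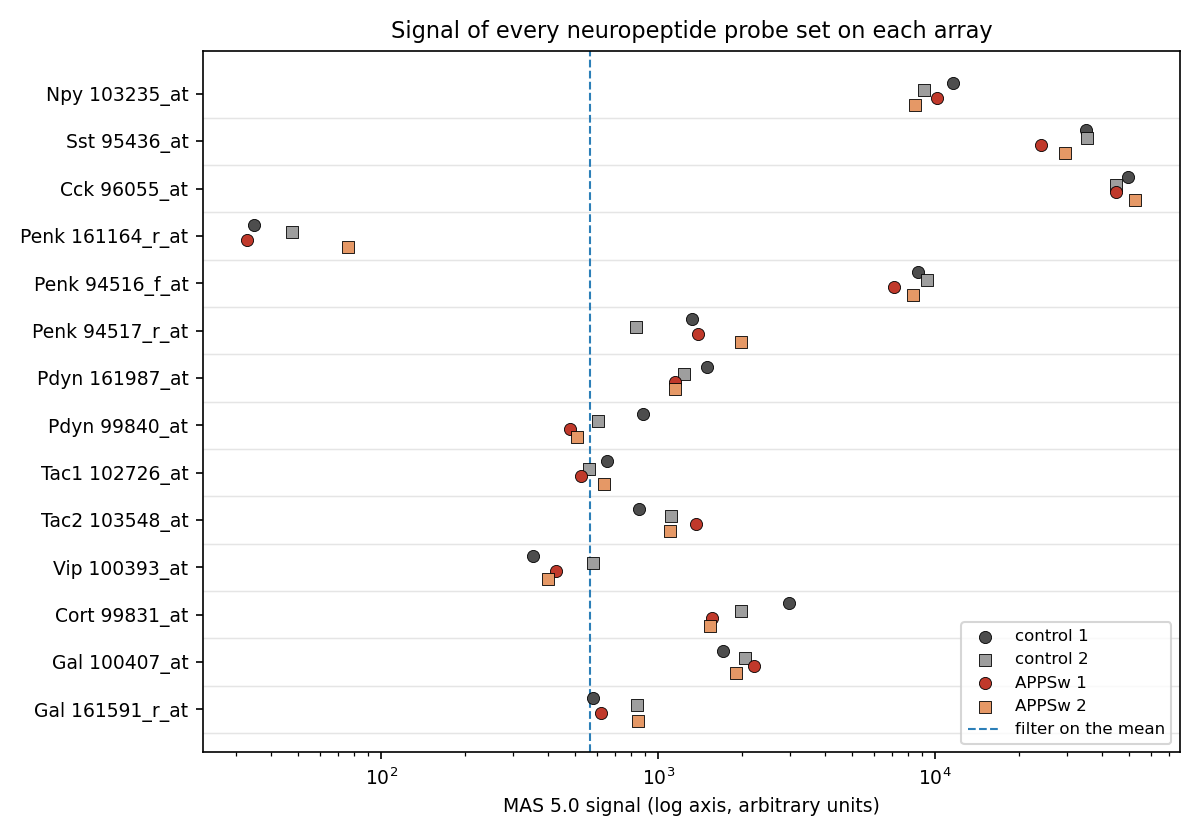
MAS 5.0 signal (log axis) of the 14 probe sets of the 10 neuropeptide genes on control 1, control 2, APPSw 1 and APPSw 2, 1 point per array; the dashed line is the filter at a geometric mean of 565. Sst, Cort, both Pdyn probe sets and Penk 94516_f_at have both APPSw points to the left of both control points.

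Somatostatin and its relative cortistatin gave the lowest values in APPSw mice relative to controls among the interneuron peptides. Sst encodes somatostatin, an inhibitory peptide of dendrite-targeting interneurons. Its probe set (95436_at) had signals of 35160 and 35242 in the controls and 24148 and 29479 in the APPSw mice. The controls were nearly identical and both APPSw arrays lay below them, with APPSw 1 the lower. The log2 difference was -0.40 (SE 0.19, 95% interval -0.86 to 0.06, adjusted p = 0.612), a signal 24.2% lower. With each array left out in turn it ranged from -0.54 to -0.26.

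Cort encodes cortistatin, which shares its receptor-binding core with somatostatin and binds the same receptors. Its signals (99831_at) were 2970 and 1996 in the controls and 1558 and 1537 in the APPSw mice. Both APPSw arrays were below both controls and nearly equal, whereas the controls differed from each other by 0.57 on the log2 scale, close to the group difference. That difference was -0.65 (SE 0.24, 95% interval -1.24 to -0.07, adjusted p = 0.609). Cort alone of the 12 had an unadjusted p under 0.05 by limma. Of all kept probe sets, 3.33% had such a p with a lower signal in APPSw mice and 4.72% with a higher one. Fitted without the filter, the 95% interval of Cort was -1.44 to 0.14. Without control 1 the difference was -0.37, and without control 2 it was -0.94.

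Npy, neuropeptide Y, is released by interneurons and restrains glutamate release. Its signals (103235_at) were 11624 and 9092 in the controls and 10144 and 8478 in the APPSw mice, and the groups overlapped. The difference was -0.15 (SE 0.21, 95% interval -0.67 to 0.37, adjusted p = 0.854), and it changed sign to 0.028 without control 1. Vip, vasoactive intestinal peptide, marks interneurons that target other interneurons. Its signals (100393_at) were 354 and 583 in the controls and 429 and 399 in the APPSw mice, with both APPSw values between the controls. Fitted without the filter, the difference was -0.14 (SE 0.32, adjusted p = 0.934).

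Cck encodes cholecystokinin, found in a class of basket cells and in principal cells. Its signals (96055_at) were 49682 and 45071 in the controls and 44783 and 52813 in the APPSw mice. The APPSw arrays lay on either side of the controls. The difference of 0.04 (SE 0.18, adjusted p = 0.963) had a 95% interval of -0.42 to 0.50, and its sign turned without control 2 (-0.031) and without APPSw 2 (-0.080).

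The opioid precursors gave different values by probe set. Pdyn encodes prodynorphin, whose dynorphins act mainly on kappa opioid receptors. One Pdyn probe set (161987_at) had signals of 1495 and 1240 in the controls and 1147 and 1151 in the APPSw mice. The other (99840_at) had 880 and 608 in the controls and 480 and 509 in the APPSw mice. By each of them both APPSw arrays were lower than both controls, and the APPSw arrays were closer to each other than the controls were. The differences were -0.25 (SE 0.18, adjusted p = 0.717) and -0.57 (SE 0.23, adjusted p = 0.612). The second had a 95% interval of -1.14 to 0.0037 and ranged from -0.83 to -0.30 with an array left out. The second lay under the filter's signal of 565 on both APPSw arrays and above it on both controls, so its place among the kept probe sets rests on the controls. These 2 probe sets share their animals and gene and are not independent of each other.

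Penk encodes proenkephalin, the precursor of the enkephalins. Its brightest probe set (94516_f_at, a suffix the manufacturer uses for probes shared within a sequence family) had signals of 8659 and 9306 in the controls and 7132 and 8322 in the APPSw mice. Another (94517_r_at) had 1328 and 834 in the controls and 1389 and 1998 in the APPSw mice. The first was lower on both APPSw arrays than on both controls and the second higher on both. The differences were -0.22 (SE 0.18, adjusted p = 0.737) and 0.66 (SE 0.30, adjusted p = 0.612). The log2 ratio of the second to the first within an array was -2.71 and -3.48 in the controls and -2.36 and -2.06 in the APPSw mice, so the 2 probe sets did not change alike. The third (161164_r_at) had signals of 33 to 76, under the filter. Penk therefore has no settled direction on these arrays.

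Of the tachykinin genes, Tac1 was measured near the filter. It encodes substance P and neurokinin A. Its signals (102726_at) were 656 and 562 in the controls and 524 and 637 in the APPSw mice, which overlapped. The difference was -0.07 (SE 0.20, adjusted p = 0.931), and it turned to 0.070 without APPSw 1 and 0.040 without control 1. Tac2 encodes neurokinin B. Its signals (103548_at) were 852 and 1114 in the controls and 1365 and 1103 in the APPSw mice. The APPSw mean was higher, while APPSw 2 lay just under control 2. The difference was 0.33 (SE 0.22, 95% interval -0.22 to 0.88, adjusted p = 0.679).

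Gal encodes galanin, an inhibitory peptide of noradrenergic and other afferents. Which cells gave its signal in this tissue was not examined. One probe set (100407_at) had signals of 1714 and 2052 in the controls and 2218 and 1911 in the APPSw mice. The other (161591_r_at) had 583 and 839 in the controls and 624 and 847 in the APPSw mice. The groups overlapped by each. The differences were 0.13 (SE 0.19, adjusted p = 0.857) and 0.06 (SE 0.26, adjusted p = 0.964). The second turned negative with control 1 left out (-0.21), with APPSw 2 left out (-0.16) and under quantile normalization (-0.055).

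**Figure D2:**
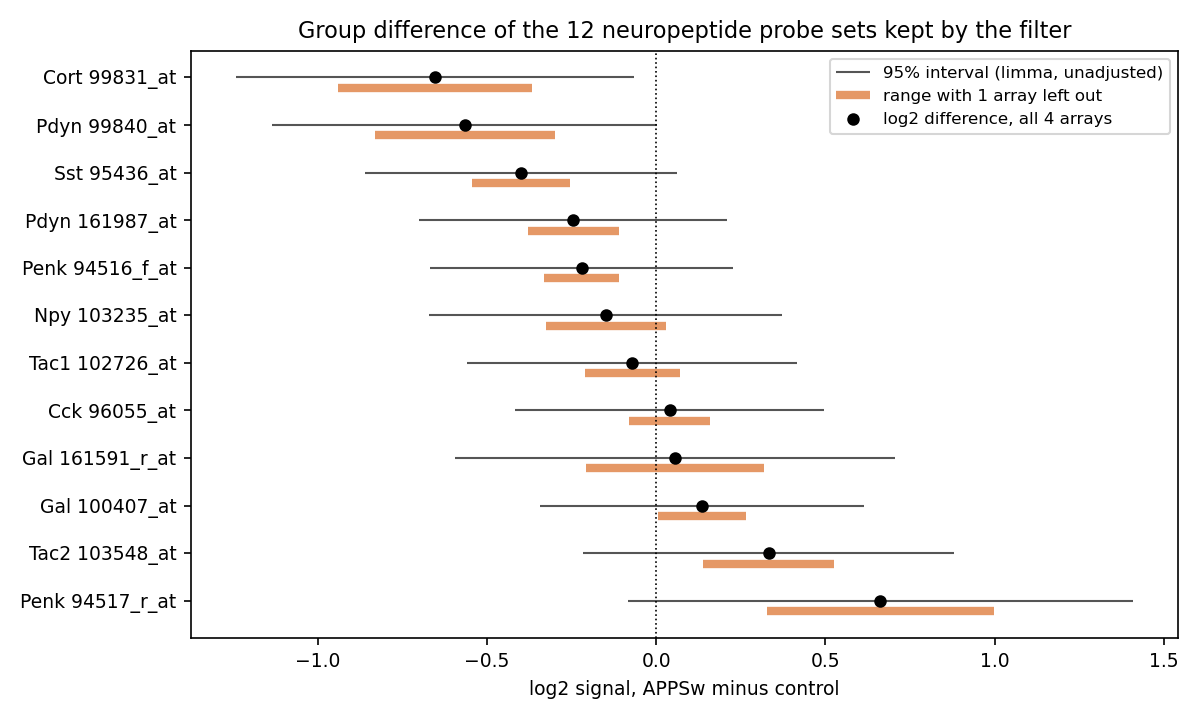
Log2 signal difference, APPSw minus control, of the 12 kept probe sets (points), with limma's unadjusted 95% intervals (thin lines) and the range with 1 array left out (thick lines). The interval of Cort alone excludes 0, from -1.24 to -0.07, and the left-out ranges of Npy, Tac1, Cck and Gal 161591_r_at cross 0.

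In bulk tissue, fewer cells of a type and less RNA per cell cannot be told apart. The peptides were set beside other interneuron markers measured on the same arrays. This comparison cannot tell them apart either, since these markers are not limited to the cells that make a given peptide. Of a list of 20, 16 were on the array and 13 passed the filter. By limma 0 of 13 were called (1, Dlx2, had an unadjusted p under 0.05), 8 lay above 0 and 5 below, and their median difference was 0.15, against 0.01 over all 5670 kept genes. Without control 1 it was -0.03. Slc32a1, the vesicular GABA transporter, had signals of 12763 and 13306 in the controls and 15105 and 16358 in the APPSw mice, with a difference of 0.27 (SE 0.17, adjusted p = 0.662). Pvalb, the calcium-binding protein parvalbumin of fast-spiking interneurons, had 0.21 (SE 0.18, adjusted p = 0.760), and 0.29 by its other kept probe set. Dlx2, an interneuron transcription factor, had -0.55 (SE 0.20, adjusted p = 0.609). Its mean signal was 752 in the controls and 517, under the filter's signal, in the APPSw mice, so it was kept through the controls. Gad2, a GABA-synthesizing enzyme, had 0.56 (SE 0.49, adjusted p = 0.754), which was -0.12 without control 1.

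The log2 ratio of Sst to the mean of the 13 markers within an array was 3.84 and 3.71 in the controls and 3.25 and 3.36 in the APPSw mice. For Cort it was 0.27 and -0.43 in the controls and -0.70 and -0.91 in the APPSw mice. For Npy it was 2.24 and 1.76 in the controls and 2.00 and 1.56 in the APPSw mice. Relative to these markers Sst and Cort were again lower on both APPSw arrays, and Npy overlapped. By this ratio, both APPSw arrays lay below both controls for 5 of the 12 neuropeptide probe sets, against 22.8% of all kept probe sets, and above for 1, against 13.8%. By the ratio to Gad1, the other GABA-synthesizing enzyme, whose own difference was -0.14, 4 lay below (7.8% of all) and 4 above (36.4% of all). By the ratio to Slc32a1, 8 lay below (49.1% of all) and 0 above (4.87% of all). The reference itself thus moves these counts for all probe sets. Sst and Cort were below by each of the 3 references, but this was not particular to them. Penk 94516_f_at and the dimmer Pdyn probe set (99840_at) were also below by each. Penk 94517_r_at was above by the 13 markers and by Gad1, and overlapped by Slc32a1. By the 13 markers, Gad1 and Slc32a1 in turn, the Sst difference was -0.47, -0.26 and -0.67. That of Pdyn 99840_at was -0.64, -0.42 and -0.84, and that of Penk 94516_f_at -0.29, -0.08 and -0.49. These references were chosen after the values of Sst and Cort had been seen.

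**Figure D3:**
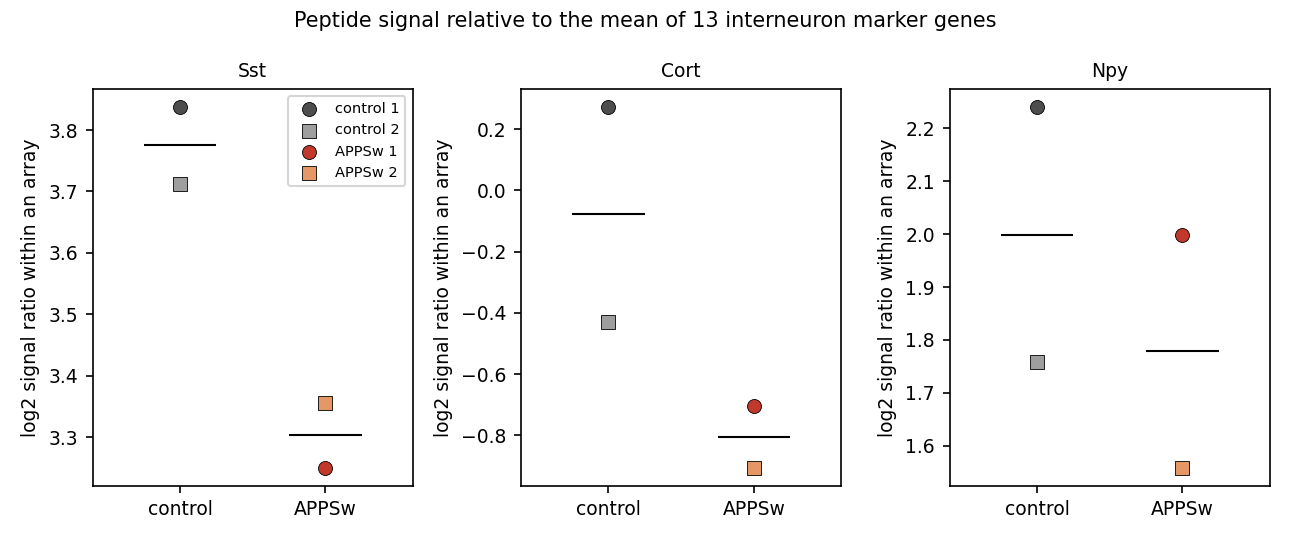
Log2 ratio within an array of Sst, Cort and Npy to the mean of 13 interneuron marker genes, in control and APPSw mice; each point is 1 array and bars are group means (n = 2). The groups are separate for Sst and Cort, with APPSw lower, and overlap for Npy; each axis has its own range and does not start at 0.

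Receptors for these peptides were mostly dim. Of a list of 24 receptor genes, 22 were on the array and 7 had a kept probe set. By limma 0 of 7 were called (1, Vipr1, at an unadjusted p under 0.05), 6 lay above 0 and 1 below, and the median was 0.27 (0.10 without control 1). Vipr1, a receptor for Vip and PACAP, had signals of 510 and 453 in the controls and 763 and 821 in the APPSw mice, a difference of 0.72 (SE 0.18, adjusted p = 0.599); its probe set was under the filter's signal in both controls and above it on both APPSw arrays. Sstr2, a somatostatin receptor, had 1.02 (SE 0.61, adjusted p = 0.651) by its brightest probe set, where control 1 lay far below the other arrays (491 against 1722 to 2225), and it had 0.05 without control 1. Its other kept probe sets gave -0.24 and 0.36. The cholecystokinin receptor Cckbr had 0.26 (SE 0.19, adjusted p = 0.713), and Adcyap1r1, the PACAP receptor, 0.61 (SE 0.38, adjusted p = 0.656). For Adcyap1r1 too, control 1 lay below the other arrays (666 against 1279 to 1696). Its difference was 0.079 without control 1 and 1.14 without control 2.

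Of 22 genes for precursor processing and dense core vesicles, 19 were on the array and 16 kept. By limma 0 of 16 were called (0 at an unadjusted p under 0.05), 6 lay above 0 and 10 below, and the median was -0.14. These counts take each gene's brightest kept probe set. Among the others, 2 had an unadjusted p under 0.05 by limma: Chga, a granin, by 1 of its probe sets (-1.28, SE 0.27, adjusted p = 0.599, under the filter's signal on both APPSw arrays), against -0.17 by its brightest, and the convertase gene Pcsk5 (1.26, SE 0.32, adjusted p = 0.599), against 0.33 by its brightest. That Pcsk5 probe set had signals of 620 and 326 in the controls, a mean of 473 and so under the filter's signal. It had 1138 and 1024 in the APPSw mice, so it was kept through them. The list's median was -0.16 in APPSw 1 against the control mean and 0.04 in APPSw 2. Scg3, a secretogranin, had signals of 4878 and 4791 in the controls and 3266 and 4113 in the APPSw mice, a difference of -0.40 (SE 0.19, adjusted p = 0.615), and 0.28 by its other probe set. Among convertases, Pcsk6 had -0.35 (SE 0.21, adjusted p = 0.654) and Furin 0.34 (SE 0.20, adjusted p = 0.651). Ptprn2, a membrane protein of secretory vesicles, had 0.34 (SE 0.17, adjusted p = 0.620).

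Among 33 other neuropeptide and peptide hormone genes, 21 were on the array and 9 kept, with 7 above 0 and 2 below and 0 of 9 called by limma (3 higher and 1 lower at an unadjusted p under 0.05). The median was 0.41, and 0.21 without APPSw 1. Adcyap1, which encodes PACAP, had signals of 606 and 708 in the controls and 1108 and 1144 in the APPSw mice, a difference of 0.78 (SE 0.18, adjusted p = 0.599). The hypothalamic peptide genes Gnrh1 and Oxt had 0.53 (SE 0.17, adjusted p = 0.599) and 0.49 (SE 0.17, adjusted p = 0.603), and Hcrt -1.51 (SE 0.31, adjusted p = 0.599). Hcrt is the 1 lower gene of that count, and its signals lay above the filter's signal on both controls (797 and 1323) and under it on both APPSw arrays (431 and 303), so it was kept through the controls.

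Granule cell and activity markers, which bear on Pdyn and on activity-dependent transcription, had 14 of 22 genes kept. By limma 0 of 14 were called (2, Egr1 and Lct, lower at an unadjusted p under 0.05), 6 lay above 0 and 8 below, and the median was -0.15. Egr1, an immediate early gene, had signals of 5559 and 8358 in the controls and 4184 and 3600 in the APPSw mice, a difference of -0.81 (SE 0.25, adjusted p = 0.599), while a dim probe set under the filter gave 1.20. The field markers Lct and Tdo2 had -0.53 (SE 0.18, adjusted p = 0.599) and -0.58 (SE 0.26, adjusted p = 0.612), and Fosb, another immediate early gene, 0.36 (SE 0.23, adjusted p = 0.666). For Tdo2, a dim probe set under the filter gave 0.52. The dimmer of the Junb probe sets also had an unadjusted p under 0.05 (-0.70, SE 0.28, adjusted p = 0.612), against -0.20 by the brighter. Of granule cell genes, Calb1, Dsp, Lct and Tdo2 had a kept probe set, and Prox1 lay under the filter.

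Neighbouring tissue can carry the same peptides, since striatum is rich in Penk, Pdyn and Tac1, and neocortex in Sst, Cort, Cck and Npy. Of 16 striatal and pallidal markers, 7 were on the array and 3 kept. Their summed signal was 11035 to 12538 in the controls and 9168 to 12080 in the APPSw mice. Drd2, a dopamine receptor, had a difference of 0.11 (SE 0.19, adjusted p = 0.884), and -0.0068 after quantile normalization. Pde1b, a phosphodiesterase, had -0.29 (SE 0.24, adjusted p = 0.750) and the transcription factor Foxp1 0.23 (SE 0.17, adjusted p = 0.711). Most of each striatal sum was Pde1b (9966 and 8503 in the controls, 9177 and 6209 in the APPSw mice). These sums therefore say little of the other markers. The 5 kept neocortex markers, of 11 listed, summed to 15987 to 17104 in the controls and 21989 to 25253 in the APPSw mice. By limma 0 of these 5 were called (2, Fezf2 and Mef2c, higher at an unadjusted p under 0.05). Fezf2 had 0.87 (SE 0.18, adjusted p = 0.599) and Mef2c 0.93 (SE 0.22, adjusted p = 0.599) by its brightest probe set. The other kept Mef2c probe sets gave 0.51, 0.65 and -0.06. All 5 lay above 0 and 0 below, with a median of 0.34. The 7 kept choroid plexus markers, of 16 listed, summed to 16611 to 25360 in controls, 140703 in APPSw 1 and 19572 in APPSw 2. No marker of these 3 lists was at 0 on any array, but nor was any other probe set, so this says nothing of neighbouring tissue. Without APPSw 1, Sst differed by -0.26, Cort by -0.66 and the Pdyn probe sets by -0.24 and -0.52. Whether the markers of these lists are also expressed in the hippocampus itself was not examined, so their sums do not measure neighbouring tissue alone. The part of neighbouring tissue in these differences was not tested.

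**Figure D4:**
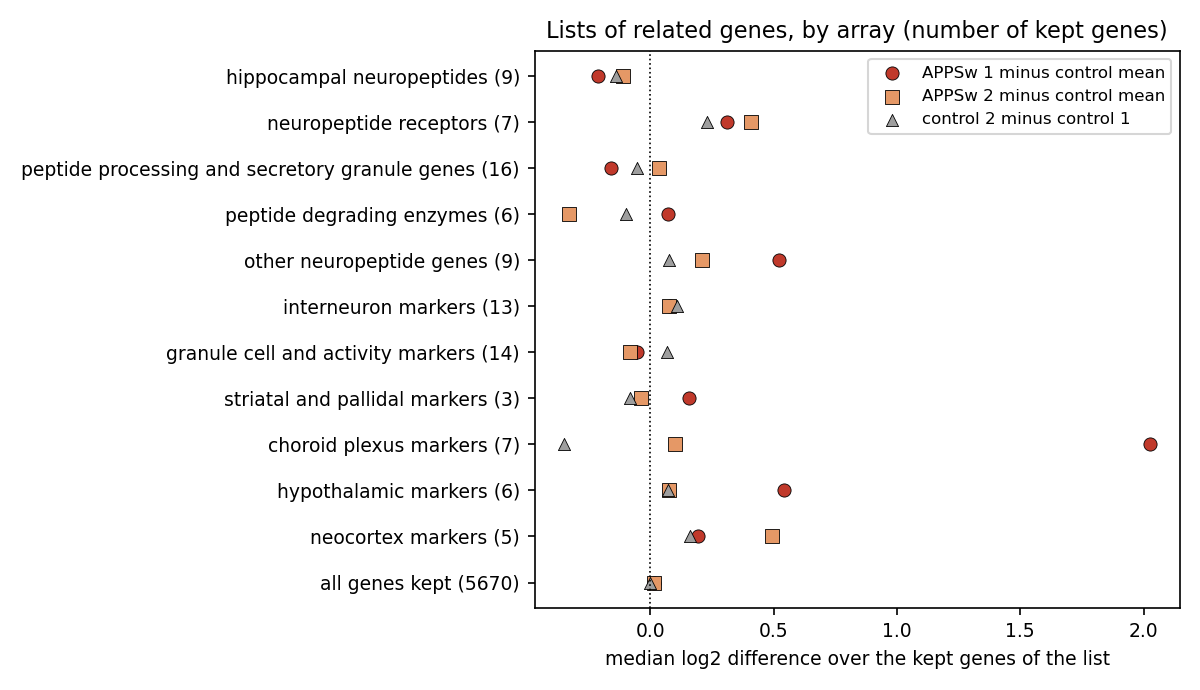
Median log2 difference over the kept genes of each list (number in brackets), for APPSw 1 and APPSw 2 against the control mean and for control 2 against control 1. The neuropeptide genes, each by its brightest probe set, lie at -0.21 and -0.11 with the controls apart by -0.14, and the choroid plexus markers lie at 2.03 in APPSw 1 and 0.10 in APPSw 2.

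The mouse App probe set (93063_at) had signals of 84901 and 94877 in the controls and 96435 and 83384 in the APPSw mice. Whether its probes match the transgene was not examined here, so it checks neither the transgene nor the labels.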

How the data were processed

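Per the labels, the authors analysed each array with MAS 5.0 and scaled it to 2500; the deposited values are linear signal intensities. Scanner and background settings were not given in the sources used here. Of 12488 probe sets, 66 manufacturer's controls were left out; of the rest 10833 had 1 gene symbol, 396 several and 1193 none, and 10817 gene identifiers matched RefSeq. Log2 signals with a mean at or above the 40th percentile (7453 probe sets) went into limma 3.58.1 under R 4.3.3 (lmFit, eBayes, two-sided; 2 residual and 3.70 prior degrees of freedom), with no further normalization; intervals are limma's, unadjusted. The fit was tested on simulated data. Precision is limited by having 2 arrays a group. In lists a gene is represented by its brightest kept probe set. Named genes are the 10 neuropeptides and up to 4 of each of 6 lists, those with the largest moderated statistic. Gad1, App, Prox1, Calb1, Dsp, Chga, Pcsk5, Junb, Nr5a1, Fezf2 and Mef2c were named after their values were seen. The neuropeptides and lists were chosen with earlier results of these data known. Alternatives were quantile normalization, no filter, the 60th percentile, a floor or pseudocount of 250, a replicate block, a variance trend, averaging a gene's probe sets and each array left out.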

Additional observations from a re-analysis of the deposited data

How the results depend on the processing

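No alternative brought a probe set past the threshold by limma: 0 were called under each of the 11 refits, for the neuropeptides and for all probe sets. The labels do not say whether same-numbered arrays were paired. Their deviations correlated at -0.02 over probe sets, which shows no shared deviation but cannot settle a pairing by litter or handling. With the replicate block in limma 0 were called, with a lowest adjusted p of 0.383. The median over the neuropeptide probe sets ranged from -0.19 to -0.041 with an array left out, against -0.11. Of the 12 kept probe sets, 8 kept their sign in each refit that held them; the filter at the 60th percentile left out 4 of these 8 (Tac2, both of Pdyn and Penk 94517_r_at), and averaging a gene's probe sets was run for medians only. With an array left out, Npy ranged from -0.33 to 0.028, Tac1 from -0.21 to 0.070, Cck from -0.080 to 0.16, Gal 161591_r_at from -0.21 to 0.32, Gad2 from -0.12 to 1.23 and Drd2 from -0.038 to 0.25. After quantile normalization Gal 161591_r_at was -0.055 and Drd2 -0.0068. The cause of these reversals was not tested. The dimmer Pdyn probe set was -0.40 with a pseudocount of 250, which shrinks differences of dim probe sets. Signals near the filter (Tac1, Vip, the dimmer Pdyn and Gal probe sets) cannot be read as detected, since MAS 5.0's detection calls were not used here.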

Other observations

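Enzymes that degrade extracellular peptides were not described above. Of 11 listed, 10 were on the array and 6 had a kept probe set. By limma 0 of 6 were called, with a lowest adjusted p of 0.620 and 0 of them at an unadjusted p under 0.05; 2 lay above 0 and 4 below. Their median difference was -0.10, and it was 0.07 in APPSw 1 against the control mean and -0.33 in APPSw 2. The 6 kept hypothalamic markers, of 13 listed, had a median of 0.54 in APPSw 1 and 0.08 in APPSw 2, with summed signals of 18764 to 19882 in controls and 18446 to 20919 in APPSw mice. Most of each sum was the brightest probe set of Nr5a1 (12364 to 14133), so the sums say little of the other markers.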
